A study of Homo sapiens with 8 samples.

Results

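The genes described here encode the JUN and FOS proteins, the core subunits of the transcription factor AP-1. The members were taken by symbol (JUN, JUNB, JUND, FOS, FOSB, FOSL1 and FOSL2), which gave 7 of the 19964 genes with a coding transcript in the deposited counts. Each gene was represented by the coding transcript with the most ribo-seq reads on its CDS over both control libraries. The members have 8 coding transcripts in all, since FOSB has 2, which differed by at most 1 read in any library. HEK293T cells, a human embryonic kidney line that carries the SV40 large T antigen, received 40 µM sodium arsenite, which causes oxidative stress, or vehicle for 30 min. Each treatment was profiled by ribo-seq, which reads the mRNA fragments protected by ribosomes, and by mRNA-seq of fragmented poly(A) RNA, in 2 independent biological replicates. This gave 8 libraries. All dishes were washed with cycloheximide, which halts ribosomes on the mRNA, at harvest.

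AP-1 is a dimer of basic leucine zipper proteins that binds DNA at the sequence TGACTCA and close relatives of it. JUN proteins can pair with each other or with FOS proteins, while FOS proteins need a JUN or another zipper partner. Several of the genes are immediate early genes, which are transcribed within minutes of a stimulus without new protein synthesis, and their mRNAs are short-lived. Stress-activated kinases of the JNK family phosphorylate JUN and raise its activity, and JUN is known to act on its own promoter through a variant of the AP-1 site. Arsenite is a known activator of these kinases and also of the kinase that phosphorylates eIF2, which lowers translation of most mRNAs.

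The promoters are shown because JUN and JUND were the members whose mRNA rose. In the RefSeq promoter table for GRCh38.p14, which covers 250 bases before to 50 bases after a gene's start, 6 of the 7 members had an entry, all except FOSL1. These were searched on both strands for the consensus AP-1 site TGACTCA, the related CRE TGACGTCA and the JUN promoter variant TGACATCA, none of which contains another. The 250 bases before the start are given for the 2 genes, read 5′ to 3′ on the strand of the gene, with the matched site in capitals. JUN lies on the minus strand of chromosome 1 (chr1:58784048-58784297) and JUND on the minus strand of chromosome 19 (chr19:18281623-18281872).
JUN: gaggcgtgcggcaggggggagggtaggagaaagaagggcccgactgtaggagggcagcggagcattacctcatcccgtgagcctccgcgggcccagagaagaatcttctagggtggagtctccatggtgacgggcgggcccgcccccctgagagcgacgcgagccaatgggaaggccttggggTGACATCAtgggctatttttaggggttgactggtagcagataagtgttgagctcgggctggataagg
JUND: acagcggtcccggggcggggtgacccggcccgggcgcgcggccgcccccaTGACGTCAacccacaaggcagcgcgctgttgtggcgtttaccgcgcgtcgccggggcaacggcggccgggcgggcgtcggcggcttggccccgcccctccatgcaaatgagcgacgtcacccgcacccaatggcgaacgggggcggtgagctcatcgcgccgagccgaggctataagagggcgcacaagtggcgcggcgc
The JUN promoter held TGACATCA with its first base 67 bases before the start, and the JUND promoter held TGACGTCA 200 bases before it. In FOSL2 the first base of TGACTCA lay 4 bases after the start. The windows of JUNB, FOS and FOSB held none of the 3 sites. The JUN promoter variant was searched because it is known from JUN, so its match there was set in advance. Whether any of these sites bears on the changes in mRNA was not tested. Of all 35116 promoters in the table, 4.95% held TGACTCA, 1.85% TGACGTCA, 2.61% TGACATCA and 9.15% any of them.

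Depth set what could be measured. In mRNA-seq, 3993293 (control) and 4018623 (arsenite) reads fell on the chosen transcripts in replicate 1, and 19435921 and 21724945 in replicate 2. In ribo-seq these numbers were 1900743 and 1023935 in replicate 1, and 7270196 and 3043812 in replicate 2. Of markers that fit HEK293T, 7 of 7 reached 1 cpm (1 count per 1000000 reads of the library) in all 4 mRNA-seq libraries. Of 6 markers of other cell types only COL1A1 did, and 2 or 3 of the 6 had no read in a given library. Their summed level was 11.5 to 11.8 cpm in control and 13.7 to 13.9 in arsenite.

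In arsenite the mRNA of JUN rose and, to a much smaller degree, that of JUND, and no other JUN or FOS gene passed the test. JUN mRNA rose 2.72-fold, and its ribosome occupancy rose nearly as much, 2.35-fold, relative to the bulk of mRNAs. Changes in TE, the ribosome occupancy relative to the mRNA, passed the test in none of the 5 members with enough reads. All changes are relative because the scaling between libraries (TMM) sets the bulk of mRNAs to no change, so the general decrease of translation under arsenite is not part of them. In bulk libraries a change in all cells cannot be told apart from a larger change in some of them.

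JUN, the first described and a strongly activating JUN protein, had 744 control and 1838 arsenite mRNA-seq reads in replicate 1, and 4011 and 12864 in replicate 2. On the scale of TMM-normalized cpm these are 190 and 471 in replicate 1 and 201 and 577 in replicate 2. Both arsenite libraries thus lay above both control libraries, with means of 524 ± 75.0 and 196 ± 8.05 (SD, n = 2). The log2 change was 1.45 (SE 0.05), with an adjusted p of 2.79e-154 (edgeR's quasi-likelihood test, Benjamini-Hochberg). This SE and p rest on error pooled over all genes tested, with 12600 degrees of freedom, and not on the spread of the 2 JUN replicates alone. By size of the rise JUN ranked 3 of 12600 genes tested. Within the replicates the log2 change was 1.31 and 1.52.

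JUND, a JUN protein that is present in most cells and is often weakly inducible, had 160 control and 213 arsenite mRNA-seq reads in replicate 1, and 1591 and 2173 in replicate 2. Its normalized level was 40.9 and 54.6 cpm in replicate 1 and 79.9 and 97.5 in replicate 2. The replicates lay further apart than the treatments, so the groups overlapped, while arsenite was higher within both replicates. The log2 change was 0.31 (SE 0.07), a 1.24-fold rise, with an adjusted p of 0.000200 in the fit that takes the change within replicates. The within-replicate log2 changes were 0.42 and 0.29. The call was lost when only mRNA-seq reads on the 3′ UTR were used (log2 change 0.25, adjusted p = 0.432) or only those on the leader (0.21, adjusted p = 0.995). It was also lost in edgeR's quasi-likelihood test without the replicate block (0.33, SE 0.41, Benjamini-Hochberg adjusted p = 1.00), and DESeq2 gave JUND an unadjusted p of 0.0219 and no adjusted p.

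JUNB, which competes with JUN for partners and can oppose it, had 29 and 26 mRNA-seq reads in replicate 1 and 160 and 193 in replicate 2, in control and arsenite. The treatments overlapped, with 7.41 and 6.67 cpm in replicate 1 and 8.03 and 8.66 in replicate 2. The log2 change was 0.07 (SE 0.15, adjusted p = 0.856), with a 95% interval of -0.22 to 0.37.

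The FOS genes had few reads. FOS, the classic immediate early partner of JUN, had 7 and 10 mRNA-seq reads in replicate 1 and 49 and 90 in replicate 2, in control and arsenite. Its normalized level was 1.79 and 2.46 cpm in the 2 control libraries and 2.56 and 4.04 in the 2 arsenite libraries. The groups did not overlap, but the gap between them was small beside the spread. The log2 change of 0.69 (SE 0.25) had an unadjusted p of 0.0053 in edgeR's quasi-likelihood test, did not pass the adjusted threshold (adjusted p = 0.0726), and has a 95% interval of 0.21 to 1.18.

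FOSL2, also known as FRA2, is a FOS protein without the strong activation domain of FOS. It had 8 and 12 mRNA-seq reads in replicate 1 and 56 and 74 in replicate 2, and its log2 change was 0.29 (SE 0.25, adjusted p = 0.589). FOSB, which is made in long and truncated forms, had 16 and 13 reads in replicate 1 and 63 and 64 in replicate 2. Its log2 change was -0.17 (SE 0.24, adjusted p = 0.783). FOSL1, or FRA1, which lacks the same domain as FOSL2, had 2 and 7 reads in replicate 1 and 25 and 25 in replicate 2. With a log2 change of 1.74 in replicate 1 and -0.16 in replicate 2, its direction differed between the replicates, and the fit gave 0.12 (SE 0.41, adjusted p = 0.926). At these depths changes of the size seen in JUND were not detectable in the FOS genes.

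For RNA level, then, 7 of 7 members were tested and 2 were called, both higher in arsenite. Over all genes tested 5.75% were called in either direction and 3.75% as higher. The normalized levels of JUN and FOSL2 as well as FOS did not overlap between the treatments, which alone does not mark a change. With 2 libraries against 2 an exact permutation test of a single gene cannot go below p = 0.333. The share of all genes without overlap was not computed.

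**Figure D1:**
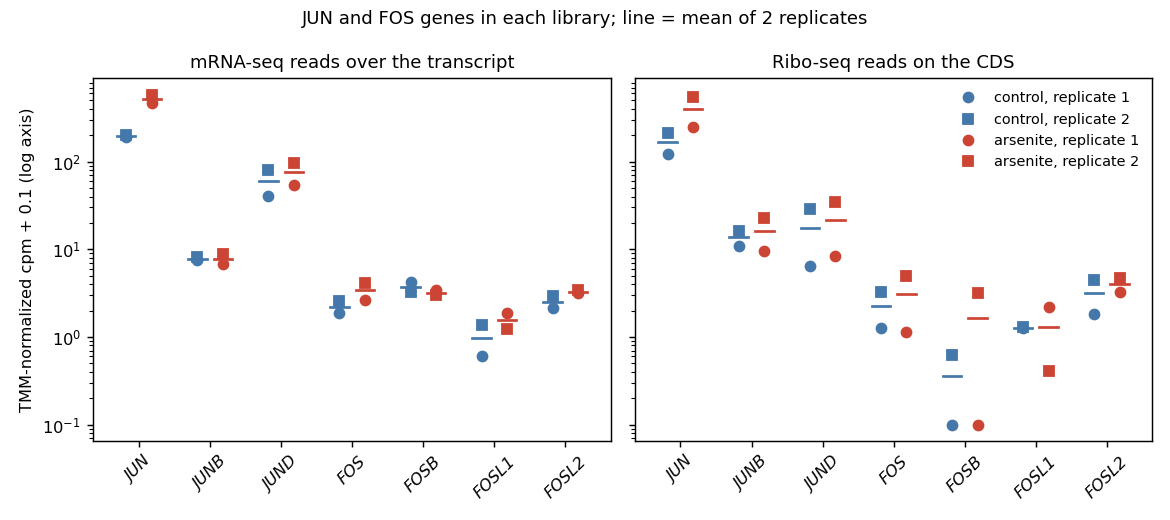
TMM-normalized cpm plus 0.1 on a log axis for each member, from mRNA-seq reads over the transcript (left) and ribo-seq reads on the CDS (right). Circles are replicate 1, squares replicate 2, blue control, red arsenite, and lines the mean of 2 replicates. JUN in arsenite lies at 471 and 577 in mRNA-seq, above 190 and 201 in control. Values are not per length, so heights are compared within a gene only, and FOSB had no ribo-seq read on the CDS in replicate 1.

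Scaling to the bulk of mRNAs does not enter the share that each member takes of the reads of all 7. JUN took 77.0% of these mRNA-seq reads in control and 86.7% with arsenite in replicate 1, of 966 and 2119 reads. In replicate 2 it took 67.4% and 83.1%, of 5955 and 15483 reads. The exact 95% intervals of the 2 treatments did not meet in either replicate (74.2% to 79.6% and 85.2% to 88.2%, then 66.2% to 68.6% and 82.5% to 83.7%), and these intervals cover counting error only. Among ribo-seq reads on the CDS the JUN share went from 85.0% to 91.2% in replicate 1, and from 79.8% to 88.7% in replicate 2. Here the exact 95% intervals overlapped in replicate 1 (79.95% to 89.23% in control and 87.07% to 94.33% in arsenite). They did not meet in replicate 2 (77.96% to 81.49% and 87.29% to 90.09%).

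The rise of JUN mRNA was seen in each region of the transcript. In replicate 1 the reads on the leader rose 2.45-fold, those on the CDS 2.72-fold and those on the 3′ UTR 2.29-fold. In replicate 2 the folds were 2.79, 2.89 and 2.91. Within replicate 1 the intervals of the 3 regions overlapped, the widest running from 2.03 to 2.98 for the leader. The JUND ratio of arsenite to control was 1.39 on the CDS and 1.20 on the 3′ UTR in replicate 1, and 1.26 and 1.18 in replicate 2.

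To place the members among genes of like depth, Z-scores of the change were computed in bins of 300 genes, within each replicate. For RNA, JUN had a Z-score of 8.12 in replicate 1 and 10.5 in replicate 2, and ranked 1 of 12385 and 1 of 14682 genes. A Z-score of 4 was passed by 9 genes in replicate 1 and 24 in replicate 2. JUND had 2.33 and 2.31, ranking 152 and 209, and FOS 0.75 and 2.75. JUN was thus the only member above 4 in RNA. For ribosome occupancy JUN had 2.12 and 4.10, the latter ranking 6 of 11612 genes.

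Ribosome occupancy was taken from ribo-seq reads on the CDS. In replicate 1 the control library held 210 JUN reads and the arsenite library 238, and in replicate 2 they held 1632 and 1798, while the arsenite libraries were the shallower ones. After normalization its occupancy was 121 and 248 cpm in replicate 1 and 215 and 553 in replicate 2. The groups did not overlap, but the lower arsenite library exceeded the higher control library by little, and replicate 2 was the higher one in both treatments. The log2 change was 1.23 (SE 0.19), with an adjusted p of 0.000815 (edgeR's quasi-likelihood test, Benjamini-Hochberg), and within the replicates it was 1.04 and 1.37.

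JUNB went from 19 ribo-seq reads in control to 9 with arsenite in replicate 1, and from 124 to 74 in replicate 2. Its occupancy change was 0.33 on the log2 scale (SE 0.31, adjusted p = 0.642), with the replicates at -0.22 and 0.48. JUND had 11 and 8 reads in replicate 1 and 220 and 112 in replicate 2, with a log2 change of 0.29 (SE 0.30, adjusted p = 0.666). FOS had 2 and 1 reads, then 24 and 16, and FOSL2 had 3 and 3, then 33 and 15, and neither passed the test (log2 change 0.57 and 0.23, adjusted p = 0.635 and 0.862).

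FOSB and FOSL1 fell under the mean of 10 counts that the test required. FOSB had no ribo-seq read on the CDS in either library of replicate 1, and 4 in control and 10 in arsenite in replicate 2. In replicate 2 alone the occupancy of FOSB was 6.05 times that in control, with an exact 95% interval of 1.75 to 26.4 that covers counting error only. When no filter on low counts was applied, FOSB had an unadjusted p of 0.0395 for occupancy, and the test of edgeR did not call it after Benjamini-Hochberg adjustment (adjusted p = 0.298). FOSL1 had 2 and 2 reads, then 9 and 1. Of the 7 members 5 were thus tested for occupancy and 1, JUN, was called, beside 2.81% of all genes called and 1.46% called as higher.

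TE compares the change in occupancy with that in mRNA. For JUN the log2 change in TE was -0.17 (SE 0.17, adjusted p = 0.597), with -0.27 in replicate 1 and -0.15 in replicate 2. Its 95% interval ran from -0.56 to 0.21. The difference was within the error, and the interval does not reach a 2-fold change in either direction. For JUNB the log2 change was 0.33 (SE 0.27), for JUND -0.05 (SE 0.19), for FOS -0.10 (SE 0.44) and for FOSL2 -0.09 (SE 0.42). Of 5 members tested 0 were called by edgeR's quasi-likelihood test and 0 had an unadjusted p under 0.05. DESeq2 also called 0, but it gave an adjusted p for JUN and JUND only. When no filter on low counts was applied, FOSB had a log2 change in TE of 2.68 (SE 0.88, unadjusted p = 0.00886) and was not called by edgeR's quasi-likelihood test (Benjamini-Hochberg adjusted p = 0.118), on 4 control and 10 arsenite CDS reads, all in replicate 2. Over all genes 2.15% were called.

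**Figure D2:**
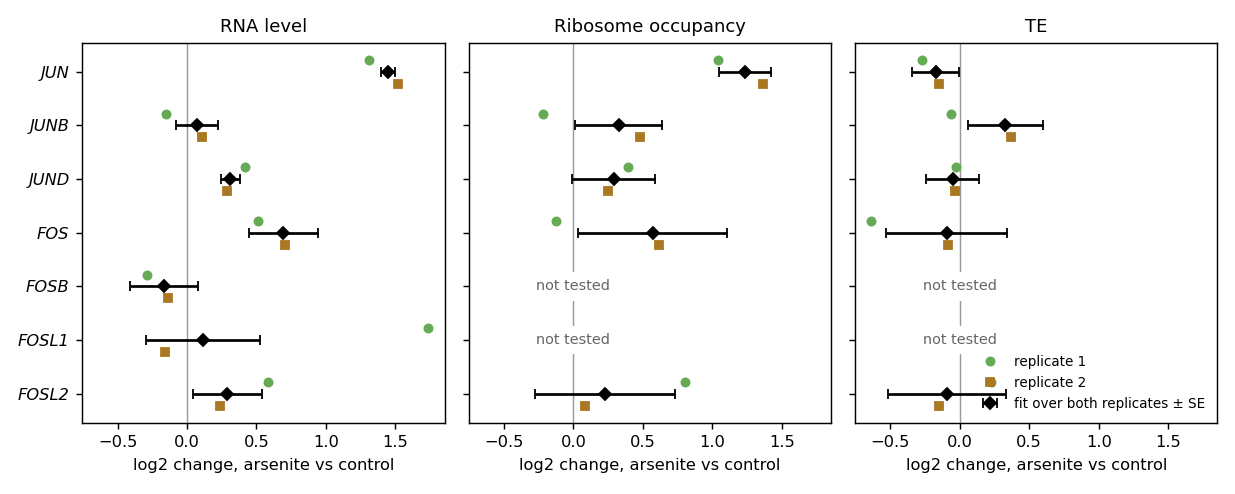
Log2 change between arsenite and control for the members in RNA level, ribosome occupancy and TE. Diamonds are the fit over both replicates with its SE, green circles replicate 1 and brown squares replicate 2. JUN lies at 1.45 in RNA, 1.23 in occupancy and -0.17 in TE, and FOSB and FOSL1 had too few reads to be tested for the last 2.

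**Figure D3:**
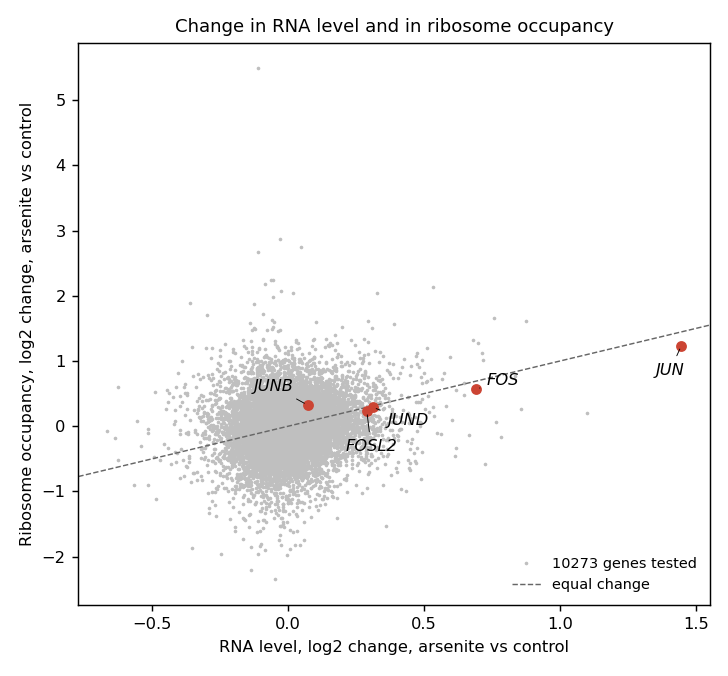
Log2 change in RNA level (horizontal axis) and in ribosome occupancy (vertical axis) for the 10273 genes tested for TE, in grey, with the 5 members tested in red. The dashed line marks equal change, and the axes have different scales. JUN, at 1.45 and 1.23, lies close to the line and to the right of the other members.

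The ribosomes carried per mRNA differed among the members already in control. The TE level used here is the ribo-seq reads per mRNA-seq read on the same CDS, each scaled to the CDS total of its library, so that the length of the CDS cancels. In control JUN had a TE level of 1.33 and 1.96 in replicates 1 and 2, and JUNB 1.39 and 2.04. JUND had 0.184 and 0.413, below the medians of all genes, 0.827 and 0.855. This put JUND at percentile 2.27 and 14.5 of the genes with at least 10 reads in both assays, and JUN at 79.4 and 93.9.

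The TE level of JUN was 7.22 times that of JUND in replicate 1 (95% counting interval 3.70 to 15.4) and 4.75 times in replicate 2 (4.02 to 5.63) in control. In arsenite the ratios were 5.77 and 4.49, so the order was the same under both treatments. JUNB was above JUND in all 4 pairs of libraries as well, by 4.94 to 8.09 times. In replicate 1 the counting intervals were wide, 2.83 to 20.2 in control and 2.25 to 25.6 in arsenite. The latter rests on 9 JUNB and 8 JUND ribo-seq reads. JUN and JUNB did not differ beyond counting error in control, with ratios of 0.961 (0.472 to 1.96) and 0.962 (0.722 to 1.28). In arsenite the ratio of JUN to JUNB was 0.757 (0.318 to 1.94) in replicate 1 and 0.555 (0.404 to 0.766) in replicate 2. In replicate 2 the TE level of FOS was 1.65 (0.891 to 3.06) in control and 1.86 (0.964 to 3.42) in arsenite. That of FOSL2 was 3.07 (1.66 to 5.87) and 2.68 (1.31 to 5.33). These rest on few reads, the FOSL2 control value on 33 ribo-seq and 17 mRNA-seq reads on the CDS.

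**Figure D4:**
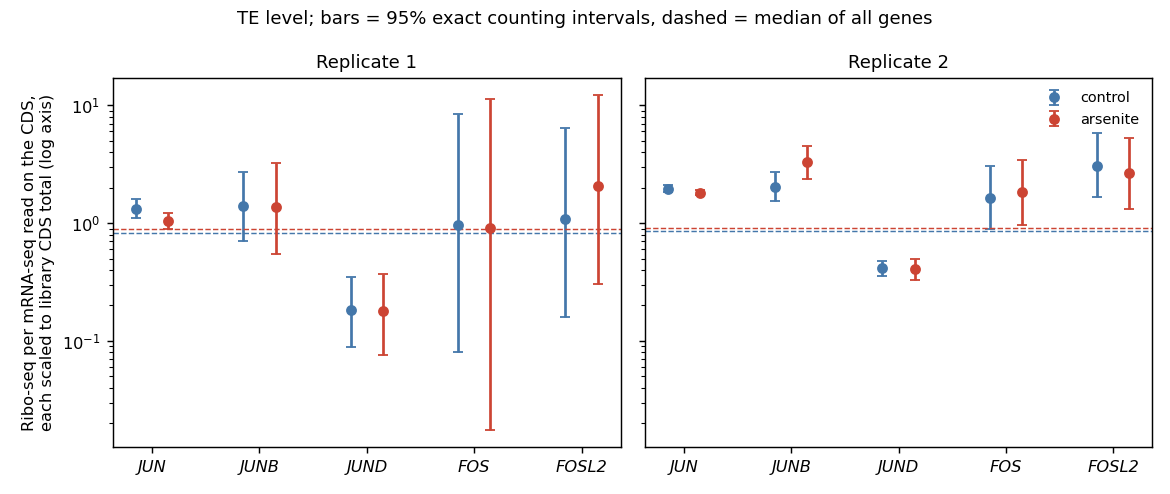
Ribo-seq reads per mRNA-seq read on the CDS, each scaled to the CDS total of its library, on a log axis for 5 members in replicate 1 (left) and 2 (right). Blue is control and red arsenite, bars are exact 95% counting intervals and dashed lines the medians of all genes. JUND, at 0.184 and 0.413 in control, lies below the medians in both replicates.

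JUN also carried ribosomes on its 5′ leader. In control 5 of 217 ribo-seq reads on JUN lay in the leader in replicate 1 (2.30%, exact 95% interval 0.752% to 5.30%) and 102 of 1737 in replicate 2 (5.87%, 4.81% to 7.08%). In arsenite they were 7 of 246 (2.85%, 1.15% to 5.78%) and 182 of 1984 (9.17%, 7.94% to 10.5%). Among genes with at least 100 ribo-seq reads the median share was 0% in both treatments of replicate 1, and 0.273% in control and 0.474% in arsenite in replicate 2. Of these genes, 94.3% to 97.1% had a lower leader share than JUN in the same library. The share is not corrected for the length of the leader. In mRNA-seq the leader held 20.4% to 30.6% of JUN reads, beside 4.11% to 5.01% of all reads on the chosen transcripts. Whether leader length accounts for the rank of JUN was not tested. The change of leader against CDS reads had a log2 value of 0.60 (SE 0.54) in JUN, the only member with enough leader reads, and was not called (adjusted p = 0.481). The median of that change over all 647 genes tested was 0.78, and 1.7% of them were called.

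**Figure D5:**
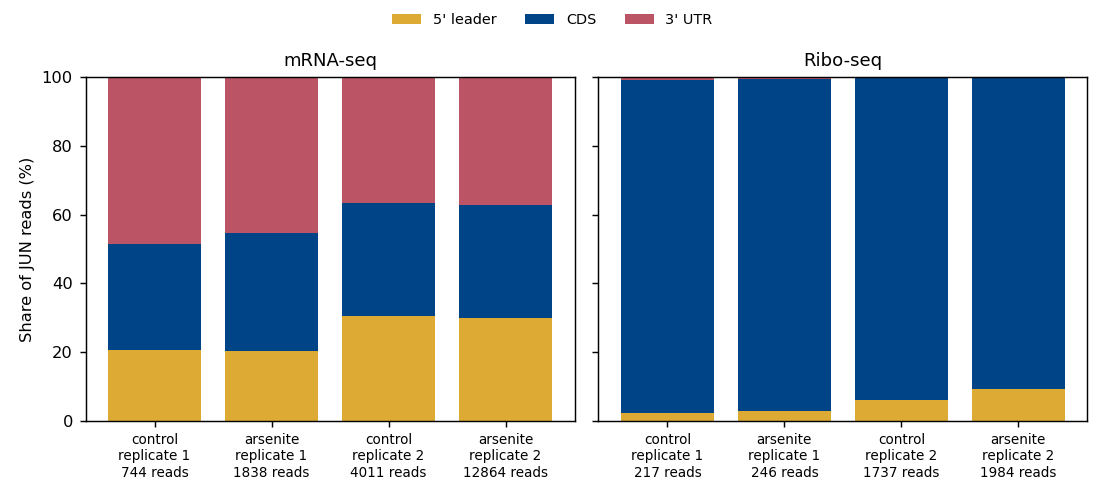
Share of JUN reads on the 5′ leader, CDS and 3′ UTR in each library, in percent, with the number of JUN reads under each bar. In mRNA-seq (left) the shares changed little between treatments of a replicate, and in ribo-seq (right) the leader share was 5.87% in control and 9.17% in arsenite of replicate 2.

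In the other members ribo-seq reads on the leader were few. JUND had none in any library, of 220 control and 115 arsenite reads in replicate 2, and FOS had none of 24 and 16. JUNB had 1 of 125 in control and 5 of 79 with arsenite in that replicate, FOSB 3 of 7 and 1 of 11, and FOSL2 0 of 33 and 2 of 17. FOSL1 had no leader read in any library, of at most 9 reads.

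The genes whose changes were most like those of JUN were sought among the other 10272 genes tested, by the distance over the 4 within-replicate log2 changes in RNA and occupancy. The nearest was DIAPH1, a formin that nucleates actin filaments, at a distance of 0.934, where the median of all genes was 2.72. SPTBN1, a spectrin of the membrane skeleton, followed at 1.06. DUSP1, a MAPK phosphatase and itself an immediate early gene, stood at 1.09, and the enzymes GLDC, of glycine cleavage, and AASS, of lysine breakdown, both stood at 1.10. In RNA level these 5 rose by 0.70 to 0.88 on the log2 scale, less than JUN. In occupancy they rose or stood higher by 0.78 (DUSP1, not called, adjusted p = 0.110 in edgeR's quasi-likelihood test) to 1.67 (AASS, adjusted p = 0.00190). DIAPH1 was the only one called in TE by that test (log2 change 0.77, adjusted p = 0.04996). The TE change was 1.03 in AASS, 0.55 in GLDC and 0.37 in SPTBN1, none of them called, and -0.06 in DUSP1. In JUN it was -0.17, so only DUSP1 had the sign of JUN in TE.

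The pathway around AP-1 was followed in 8 lists with 119 genes. For RNA level 109 were tested, of which 7 rose and 4 fell, or 10.1%, beside 5.75% of all genes. For occupancy 0 of 91 rose and 1 fell, and for TE 0 of 91 rose and 2 fell, beside 2.81% and 2.15% of all genes called. The medians of the lists for RNA lay between -0.06 and 0.12 on the log2 scale, and that of all genes at -0.01.

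In the JNK and p38 cascade, which phosphorylates JUN and ATF proteins, 1 of 32 genes rose in RNA level and 2 fell. The gene that rose was MAPK8IP2 (log2 change 0.35, SE 0.09), a scaffold for JNK. MAPK8IP3, another such scaffold, fell by 0.31 (SE 0.08), with -0.88 in replicate 1 and -0.18 in replicate 2. MAPKAPK3, a kinase downstream of p38, fell by 0.21 (SE 0.06), with -0.08 in replicate 1 and -0.25 in replicate 2.

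Among 11 zipper partners tested, ATF3, a stress-induced partner of JUN, rose by 0.37 (SE 0.07, adjusted p = 1.49e-05). JDP2, which pairs with JUN and represses, fell by 0.50 (SE 0.15, adjusted p = 0.0272) on 37 and 181 control reads. Of 12 upstream transcription factors 1 rose, MKL1, a coactivator of SRF, by 0.27 (SE 0.08, adjusted p = 0.0309).

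Of 11 MAPK phosphatases, which switch the kinases off, DUSP1 alone passed the test in RNA level. It had 63 and 108 mRNA-seq reads in replicate 1 and 388 and 779 in replicate 2, in control and arsenite. Its log2 change was 0.84 (SE 0.10, adjusted p = 2.44e-15), the highest of the list genes called, and its TE change was -0.06 (adjusted p = 0.875).

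Of 10 genes of JUN turnover and modification 1 rose, DDB1, an adaptor of CUL4 ubiquitin ligases, by 0.24 (SE 0.05). Of 12 classical AP-1 targets tested 1 rose, EZR, which encodes ezrin, by 0.49 (SE 0.06, adjusted p = 4.84e-14). None of the 10 targets tested for occupancy or TE passed.

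Proteins that bind AU-rich elements, which mark short-lived mRNAs such as those of FOS and JUN, held the list genes that fell in TE. KHSRP, which promotes decay of such mRNAs, rose by 0.30 in RNA level (SE 0.05) and fell in TE by 1.00 (SE 0.18, adjusted p = 0.0346) and in occupancy by 0.70 (adjusted p = 0.0461). ELAVL1, known as HuR, which stabilizes them, fell in TE by 0.71 (SE 0.15, adjusted p = 0.0486). No other of the 10 genes tested was called in TE.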

How the data were processed

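Ribo-seq and mRNA-seq were carried out on HEK293T cells with vehicle or arsenite, with 2 replicates each. Per the labels and methods, the authors trimmed adapters with Cutadapt, aligned reads to RefSeq transcripts with Bowtie 1.0.0, assigned footprints to the A-site and discarded reads on more than 1 gene. They deposited counts per transcript with no normalization, split into leader, CDS and 3′ UTR. The alignment was to transcripts, and the counts carry no genome coordinates. The regions summed to the total in all coding transcripts.

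Changes were tested with edgeR 4.0.16 in R 4.3.3 (quasi-likelihood test, TMM, Benjamini-Hochberg adjustment over all genes tested, threshold 0.05, mean of at least 10 counts). TE was tested as an assay by treatment interaction over 8 libraries, and the leader shift that of region and treatment over the ribo-seq libraries. The replicate was a block, as the methods give each replicate its own adapter, sequencing and normalization. Deviations of libraries with the same replicate number from their group means had a correlation of 0.673 over 12600 genes in mRNA-seq and 0.664 over 10291 in ribo-seq. SE is the change divided by the root of its F statistic. Z-scores used a minimum of 2 normalized reads, and within-replicate changes a prior count of 0.5. Replicate 1 had fewer reads throughout, so its values for FOS genes carry large counting errors. Intervals of shares, folds and ratios, and floors, cover counting error only. Those of the fitted log2 changes come from the fit and its SE. The tests were checked on simulated counts.

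The genes named are the members, the 5 genes nearest to JUN and, per pathway list, those past the threshold, up to 4. Of these, 1 gene is not reported here. Members and lists were chosen with earlier results of these data known. Alternatives were DESeq2 1.42.0, other normalizations, filters, transcripts, read regions, no block, other Z-score settings and prior counts, and leaving out a replicate. Figures were drawn with matplotlib 3.10.9.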

Additional observations from a re-analysis of the deposited data

Results flagged for a closer look

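The JUN leader share of ribo-seq reads in replicate 2 was 9.17% in arsenite, above the exact 95% interval of the control share, 5.87% (4.81% to 7.08%). It was singled out because leader reads do not enter occupancy or TE and the arsenite interval lay wholly above the control one. In replicate 1, with 5 and 7 leader reads, the intervals overlapped. Of 26 such comparisons of leader and 3′ UTR shares over the members and replicates this was the only one. The test of leader against CDS reads over both replicates did not call JUN (log2 0.60, adjusted p = 0.481, edgeR's quasi-likelihood test, Benjamini-Hochberg). The median log2 change over all 647 genes in that test was 0.78, above that of JUN. Over all ribo-seq reads on the chosen transcripts in replicate 2, the leader share went from 0.795% in control to 1.52% in arsenite. A rise in leader share was thus not particular to JUN.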

How the results depend on the processing

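The changes of JUN in RNA level, occupancy and TE kept their direction under each alternative run, and its RNA and occupancy calls were lost under 1 of them, the fit without the replicate block. There edgeR called 0 genes in RNA level, occupancy, TE and leader shift, 0 members and 0 genes of the lists, where 28, 150, 147 and 2 genes had an unadjusted p under 0.05. JUN had log2 changes of 1.42 in RNA (adjusted p = 1.00) and 1.27 in occupancy. With DESeq2, 98 genes were called for RNA, 54 for occupancy, 95 for TE and 2 of the lists, and 1 member for RNA. JUND had an unadjusted p of 0.0219 there and no adjusted p. From mRNA-seq reads on the CDS 240 genes were called for RNA, 80 for TE and 5 of the lists. From reads on the 3′ UTR 53 genes, 3 of the lists and 1 member were called for RNA, and from leader reads 4 genes, 0 of the lists and 1 member. Occupancy calls numbered 477 with upper-quartile scaling, 556 with RLE size factors, 540 with no filter and 578 with a mean of at least 50 counts. TE calls numbered 142 with upper-quartile scaling, 458 with no filter and 136 with at least 50 counts. The leader shift had 3 calls with at least 5 counts. The cause of these differences was not tested.

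Leaving out a replicate leaves no residual degrees of freedom, so it gave values and no count of calls. The JUN changes then ranged from 1.31 to 1.52 in RNA, 1.04 to 1.37 in occupancy and -0.27 to -0.15 in TE. Among the uncalled changes of other members the sign turned for JUNB RNA from CDS reads (-0.15), FOS TE from CDS mRNA reads (0.12), FOSB RNA from 3′ UTR reads (0.0397) and FOSL2 TE from whole-transcript ribo-seq reads (0.0317). It also turned without replicate 2 for JUNB in RNA (-0.15), occupancy (-0.22) and TE (-0.07), FOS in occupancy (-0.12) and FOSL2 in TE (0.22), and without replicate 1 for FOSL1 in RNA (-0.16). The FOSL2 mean of within-replicate TE changes turned from 0.0374 to -0.0104 with a prior count of 2. JUND RNA lost its call under 3 alternatives that gave it an adjusted p, and DESeq2, which gave none, did not call it either. The 5 genes nearest to JUN and the 1 member with an RNA Z-score over 4 were the same under the settings tried. Depth limits FOSB and FOSL1 most, which had at most 10 ribo-seq reads on the CDS in any library.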
